A study of Mus musculus with 24 samples.

Results

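The genes described here encode the machinery that shortens, decaps and degrades messenger RNA: the CCR4-NOT complex with its TOB partners (13 genes), the PAN2, PAN3 and PARN deadenylases (3), decapping factors (7), LSM proteins (7), XRN exonucleases (2), the exosome (11), cytoplasmic poly(A)-binding proteins (2) and nonsense-mediated decay factors (3). They were chosen by gene symbol, and all 48 were found, once each, among the 15737 genes of the deposited table. All 48 also passed the filter on low counts, which left 12936 genes to test. RNA was measured by SLAM-seq in basophils grown from mouse bone marrow, in 8 groups of 3 libraries. The TTP-KO groups came from mice lacking tristetraprolin (TTP, encoded by Zfp36), and the WT groups from wild-type mice. Every group, of either genotype, had been cultured with IL-3 at 0.3 ng/mL for 7 days, had received TNP-specific IgE at 1 µg/mL and the uridine analogue s4U at 150 µM on day 6, was enriched for CD49b-bearing cells, and was exposed to TNP-OVA, the antigen, at 10 ng/mL for 1.5 h with s4U. The groups of each genotype were collected 0, 1, 2 and 4 h after antigen and s4U were removed. No group without antigen was among the samples, the allele and the age of the mice were not given in the sources used here, and no label ties the libraries of a group to different mice or cultures, so p-values measure the spread between libraries, which may be technical.

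Most messenger RNA decay starts when deadenylases trim the poly(A) tail, after which the cap is removed and the body is degraded from the 5′ end by XRN1, or the RNA is degraded from the 3′ end by the exosome. TTP is an RNA-binding protein that recognises AU-rich elements in the 3′ untranslated regions (UTRs) of cytokine RNAs and recruits CCR4-NOT through its scaffold subunit CNOT1. In macrophages and other immune cells it is known as a brake on inflammatory transcripts. The genes below include CCR4-NOT, which TTP recruits, beside general factors of RNA decay.

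TTP is known to bind an AU-rich nonamer, written here as DNA, TTATTTATT. The annotated 3′ UTRs of the 48 genes were searched for it on the sense strand, and for the heptamer TATTTAT that lies within it. The nonamer was present in 3 of 48 genes (6.25%), against 1068 of the 12740 tested genes with an annotated 3′ UTR (8.38%). The heptamer was present in 13 of the 48 (27.1%), against 30.7% of the tested genes. The 3 nonamers are shown with the motif in capitals and 10 bases on either side, from GENCODE M21 transcripts (GRCm38). They lie in the 3′ UTRs of Cnot6l (chromosome 5, bases 6001 to 6009 of a 3′ UTR of 6847 bases), Edc3 (chromosome 9, bases 2068 to 2076 of 4004) and Xrn1 (chromosome 9, bases 2454 to 2462 of 4994).
Cnot6l: agggaagagaTTATTTATTtttgtttcct
Edc3: agcttctagcTTATTTATTggcttgcctt
Xrn1: actagaaaagTTATTTATTtgattaagcc
Of the 16 genes that passed a test below, Xrn1 bears the nonamer and 4 bear the heptamer without it, where 30.7% of the tested genes bear the heptamer. It is shown for each of the 4: Pan3 (chromosome 5, bases 2195 to 2201 of 2750), Cnot3 (chromosome 7, bases 248 to 254 of 283), Tob2 (chromosome 15, bases 852 to 858 of 2457) and Lsm6 (chromosome 8, bases 3210 to 3216 of 3346).
Pan3: ctttgttttaTATTTATttttcatttc
Cnot3: ttttggaaaaTATTTATgaataaatag
Tob2: atcacctgctTATTTATgtacgaggtt
Lsm6: caagtctggcTATTTATaggagaaagt
A match is a run of letters in the longest annotated 3′ UTR of a gene and not a measured binding site. Which 3′ UTR these cells used was not tested. The annotation is of another build than the one the submitters named (GRCm39), so positions are given within the UTR only.

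Libraries held 8839260 to 25372890 reads, and the smallest were B and C of TTP-KO at 4 h, which also held less Actb than library A of that group. Levels are given as CPM (reads scaled to a common library total after TMM normalisation), and changes as log2 ± SE with adjusted p from edgeR's quasi-likelihood test over all genes. The labelled cell type was borne out by basophil genes: Mcpt8, a basophil protease, lay between 11810 and 15110 CPM. The summed level of 17 macrophage markers was 2740 to 2848 CPM in TTP-KO and 966 to 1039 in WT at 0 h, and 1546 to 1984 CPM in TTP-KO and 612 to 653 in WT at 4 h, with none of the 17 at 0 in every library. Its part in the differences between genotypes was not tested. The summed level of 14 basophil markers was 38920 to 42930 CPM at 4 h and 53050 to 54580 at 0 h in TTP-KO, and 36810 to 39600 at 4 h and 54240 to 55450 at 0 h in WT, and its part in the changes with time was not tested either. These 14 include Mcpt8 and the cytokine gene Il4, which ran from 355 to 6718 CPM over the libraries. Hdc (6158 to 14040 CPM) and Prss34 (6344 to 12500) are also among them. Neutrophil markers (9) summed to 3325 to 3454 CPM at 4 h and 3691 to 3945 at 0 h in TTP-KO. In WT they summed to 2409 to 2662 CPM at 4 h and 4260 to 4697 at 0 h. Of these, S100a8 (849 to 1739 CPM), S100a9 (1154 to 2052), Ngp, Mpo, Ltf, Camp and Prtn3 were at 0 in no library. Elane was at 0 in 8 of 24 libraries and Ly6g in 1. Mast cell markers (7) summed to 130 to 158 CPM in TTP-KO and 238 to 255 in WT at 0 h. Of these, Tpsb2 (70.3 to 221 CPM), Cma1 (20.3 to 80.2) and Kit (1.94 to 32.3) were at 0 in no library. Mcpt4 was at 0 in 19 libraries, Mcpt1 in 18, Mcpt2 in 8 and Tpsab1 in 6. The part of the neutrophil and mast cell markers in the results was not tested. In such bulk samples, fewer cells of a type and less RNA per cell cannot be told apart.

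The 3′ tags count transcripts rather than their length, so mean levels over the 24 libraries can be set side by side on the CPM scale as a description. Pabpc1, the main cytoplasmic poly(A)-binding protein gene, had the highest mean, at 802 CPM, and its paralog Pabpc4 stood at 39.1 CPM. Ddx6, which encodes a helicase that represses translation and activates decapping, stood at 252 CPM, the highest of the decapping group, and the decapping cofactor gene Dcp1b at 3.05 CPM was the lowest of all 48. In CCR4-NOT and its partners, means ran between 7.65 CPM for Tob1 and 104 CPM for Tob2, paralogs that link the CAF1 deadenylases to poly(A)-binding protein. Among the other groups the lowest and highest means were 9.22 CPM for Parn and 56.2 CPM for Pan3, 9.44 CPM for Lsm5 and 73.6 CPM for Lsm6, 18.4 CPM for Xrn1 and 73.0 CPM for Xrn2, 4.98 CPM for Dis3l and 37.5 CPM for Exosc10, and 45.7 CPM for Smg1 and 50.4 CPM for Upf1. The SE of a log2 change between single groups ran from 0.11 for Pabpc1, the gene of highest mean, to 1.83 for Dcp1b, that of lowest mean. Of 1152 values of a gene in a library, 7 were 0 reads, in Parn, Dcp1b, Exosc2 and Dis3l, which allows up to 0.126 to 0.290 CPM (3 counts in that library, counting error only). Deposited reads were not whole numbers, to within 0.001, in 24 of 24 libraries for Pabpc1 and Pabpc4, in 22 for Cnot3 and in 19 for Ddx6, so reads that also match other loci may have been divided, and the levels of these genes are uncertain to that extent.

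The genotype comparison asks whether loss of TTP changed the RNA levels of the decay machinery itself. Only Pan3 passed, at 4 h. The SE of a log2 change between single groups reached 1.83, so a gene that did not pass is not shown to be unchanged. At 0 h none of the 48 passed, where 0.448% of all tested genes were higher and 0.0773% lower in TTP-KO. None passed at 1 h (0.402% of all genes higher and 0.1% lower) or at 2 h (0.41% higher and 0.108% lower), and 1 passed at 4 h, Pan3, which was lower (0.943% of all genes higher and 0.881% lower). Averaged over the 4 times none passed, where 1.88% of all genes were higher and 1.55% lower. With 48 genes, these adjusted edgeR shares give less than 1 call in each direction, so the adjusted edgeR counts were near the background. At an unadjusted p under 0.05, edgeR counted 3 genes at 0 h, 1 at 1 h and 2 at 2 h. It counted 4 at 4 h and 7 for the average. The share of all genes under that unadjusted threshold is not given here, so these counts cannot be set against a background. At its adjusted threshold DESeq2 passed 0, 0, 0, 1 and 0 of the 48. Over all genes its totals, raised and then lowered in TTP-KO, were 130 and 92 at 0 h and 108 and 96 at 1 h. They were 138 and 96 at 2 h, 273 and 216 at 4 h, and 393 and 335 for the average. Over the genotype comparisons and the time comparisons below, 14 in all, 16 of the 48 genes passed edgeR's test at least once (33.3%, against 27.9% of all genes). The other 32 never did.

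**Figure D1:**
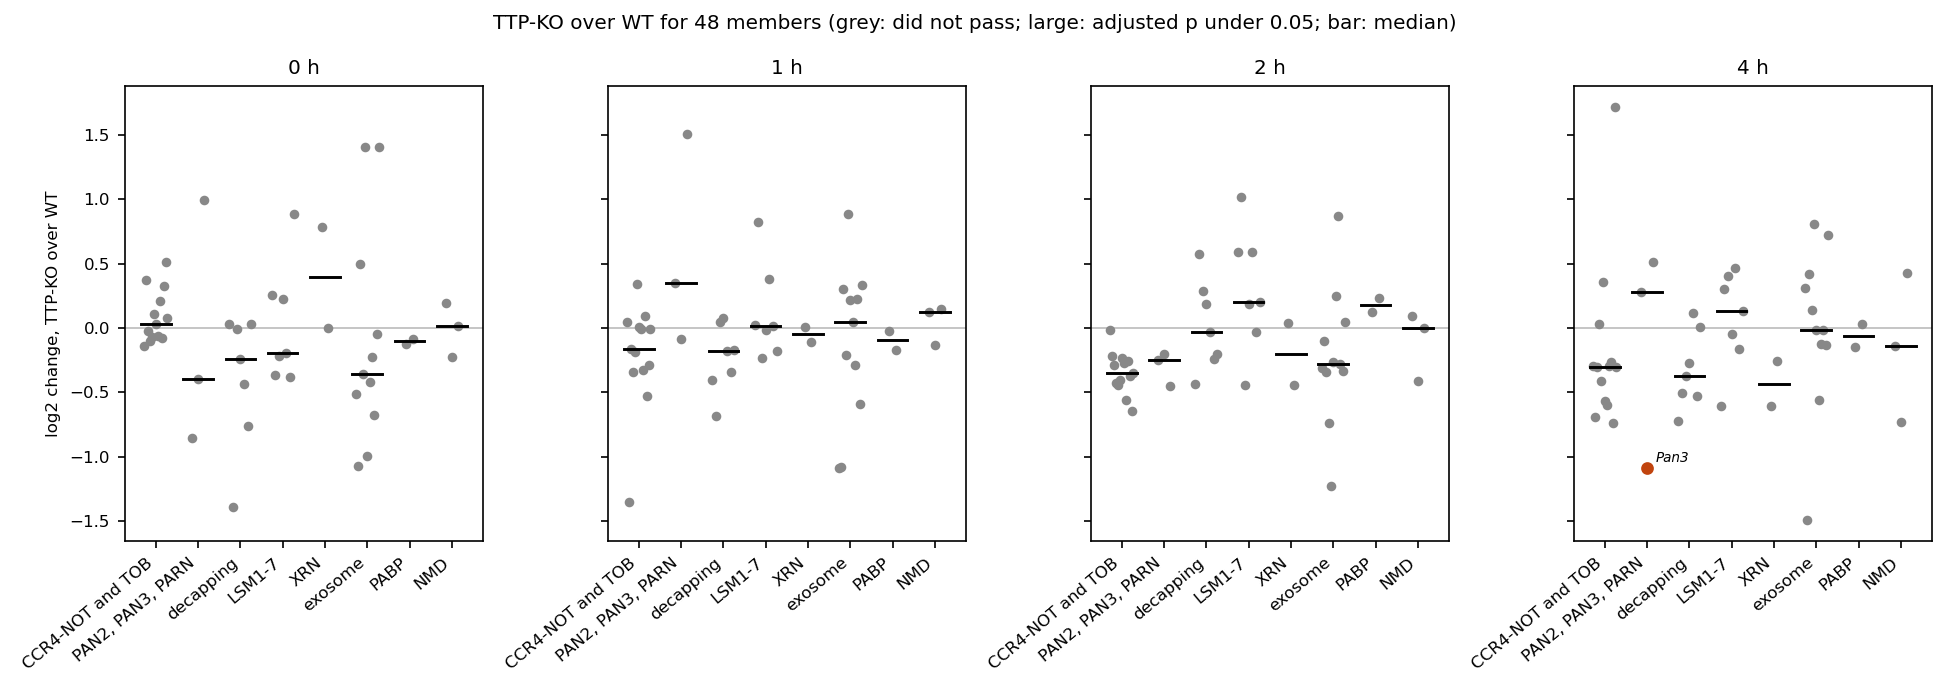
Log2 change of TTP-KO over WT (vertical axis) for each of the 48 genes at 0, 1, 2 and 4 h (panels), by functional group (horizontal axis); a point is a gene, a bar the group's median, and a large coloured point a gene with adjusted p under 0.05. Pan3 at 4 h (-1.09) is the one coloured point, and at 2 h all 13 points of the CCR4-NOT and TOB group lie below 0.

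Pan3 encodes the adaptor that brings the PAN2 deadenylase to poly(A)-binding protein. At 4 h its libraries A, B and C stood at 48.5, 19.1 and 37.6 CPM in TTP-KO, against 77.0, 80.5 and 67.1 CPM in WT. All 3 TTP-KO libraries lay below all 3 WT libraries, with library B of TTP-KO the lowest. The log2 change was -1.09 ± 0.28 (edgeR adjusted p = 0.0277). The call was not kept when library B of TTP-KO was left out (log2 change -0.80, edgeR adjusted p = 0.259), nor without library C of TTP-KO (0.055), A of WT (0.057) or B of WT (0.072), nor when both B and C of TTP-KO were left out (log2 change -0.64, adjusted p = 0.707) or only the groups compared were fitted (0.208). At the earlier times Pan3 was at 58.5, 56.1 and 42.8 CPM in TTP-KO and 70.3, 53.1 and 83.2 CPM in WT at 0 h, and its log2 changes were -0.39 at 0 h, -0.08 at 1 h and -0.20 at 2 h, none of which passed. Its catalytic partner Pan2 stood at 5.19, 31.4 and 14.2 CPM in TTP-KO and at 6.20, 23.3 and 12.2 CPM in WT at 4 h, so these groups overlapped fully (0.28 ± 0.61, edgeR adjusted p = 0.962). Parn, a poly(A)-specific ribonuclease gene, had a log2 change of 0.52 ± 0.82 at 4 h, which did not pass.

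In the CCR4-NOT group none of 13 genes passed at any time, but the estimates leaned one way at 2 h. There all 13 had a negative log2 change, from -0.64 for Tob1 to -0.01 for Cnot1, which encodes the scaffold that TTP contacts, with a median of -0.35. Over all tested genes the median at 2 h was 0.000324, with 6473 positive and 6231 negative. The 13 genes were measured in the same 6 libraries and are not independent, so the count is a description, and leaving out 1 library left 0 to 2 of them positive. Cnot7 and Cnot8, which encode the CAF1 nucleases, had log2 changes of -0.56 ± 0.30 and -0.26 ± 0.34 at 2 h, and Cnot6 and Cnot6l, which encode the CCR4 nucleases, -0.24 ± 0.21 and -0.27 ± 0.23. Cnot7 libraries A, B and C stood at 46.2, 31.3 and 19.8 CPM in TTP-KO at 2 h, against 44.1, 51.4 and 47.9 CPM in WT. The groups overlapped through library A of TTP-KO. At the other times the median of the 13 was 0.04 at 0 h, with 7 positive, -0.16 at 1 h, with 4 positive, and -0.30 at 4 h, with 3 positive. At 4 h the nonamer-bearing Cnot6l stood at 69.4, 60.7 and 74.6 CPM in TTP-KO, against 116, 84.2 and 110 CPM in WT. Its groups did not overlap, but the change of -0.60 ± 0.23 did not pass (edgeR adjusted p = 0.232). Cnot6 at 4 h stood at 74.8, 54.2 and 77.8 CPM in TTP-KO, against 122, 76.4 and 108 CPM in WT, overlapping by library C of TTP-KO and B of WT (-0.57 ± 0.22, adjusted p = 0.232). Without libraries B and C of TTP-KO at 4 h the median of the 13 at that time was -0.13.

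Averaged over the times, all 7 decapping genes had a negative log2 change, from -0.50 to -0.01, and none passed. Of all tested genes 6327 were positive and 6609 negative in that comparison. The 7 genes were measured in the same libraries and are not independent, so the count is a description. Leaving out 1 library left 0 to 1 of the 7 positive. Over all 48 genes the median log2 change was -0.06 at 0 h, -0.02 at 1 h, -0.24 at 2 h and -0.14 at 4 h. The 3 TTP-KO libraries lay above the 3 WT libraries at 0 h for 2 of 48 genes (4.17%, against 6.87% of all genes) and below for 3 (6.25%, against 6.3%), and at 1 h above for 1 (2.08%, against 5.82%) and below for 3 (6.25%, against 6.31%). They lay above at 2 h for 1 gene, Lsm1, where 6.13% of all genes did so, and below for 4 (8.33%, against 5.38% of all genes), Tob2, Xrn2, Exosc2 and Exosc10. At 4 h they lay above for 0 of 48 (7.11% of all genes) and below for 5 (10.4%, against 6.79% of all genes), Cnot6l, Pan3, Xrn2, Pabpc1 and Upf1. Upf1 encodes the RNA helicase at the centre of nonsense-mediated decay. It stood at 33.0, 37.8 and 48.3 CPM in TTP-KO at 4 h and at 93.3, 53.3 and 50.5 CPM in WT, where library A was far above the others (-0.73 ± 0.26, edgeR adjusted p = 0.187). Averaged over the times its change was -0.37 ± 0.13 (adjusted p = 0.112), and that of Pan3 -0.44 ± 0.14 (adjusted p = 0.07), the lowest adjusted p of the 48 in that comparison. The other nonamer-bearing genes, Edc3, an enhancer of decapping, and Xrn1 had log2 changes of -0.43 ± 0.31 and 0.78 ± 0.43 at 0 h and of 0.11 ± 0.31 and -0.60 ± 0.42 at 4 h, none of which passed. The catalytic decapping gene Dcp2 lay within -0.37 and 0.29 at all 4 times, its activators Dcp1a between -0.72 and 0.03 and Dcp1b between -1.39 and 0.58, and no estimate passed.

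The time comparison asks how the machinery changed after antigen was removed. The share of the 48 genes that passed was near that of all genes at 4 h, so the calls describe single genes and not the machinery. Ddx6 fell at 4 h and Cnot3 rose at 2 h and 4 h in both genotypes, and Tob2 rose at 1 h in both. The TTP-KO calls of Cnot3 and the 1 h calls of Tob2 were lost without certain single libraries. The fall of Pabpc1 at 4 h, also called in both genotypes, did not pass when libraries were scaled by size alone. All time changes are relative to the scaling: TMM left the median of all tested genes at 0.08 in TTP-KO and 0.06 in WT for 4 h over 0 h, while scaling by library size alone put it at 0.46 and 0.38, so a change is read against that median. In TTP-KO 1 of 48 genes rose at 1 h over 0 h and 0 fell (1.23% of all genes higher, 1.51% lower), 1 rose and 1 fell at 2 h (4.12% and 5.77%), and 5 rose and 2 fell at 4 h (7.45% and 10.6%). In WT 1 rose and 0 fell at 1 h (1.05% and 1.28%), 3 rose and 3 fell at 2 h (3.58% and 6.47%), and 6 rose and 4 fell at 4 h (6.76% and 9.97%). The 4 h calls thus made up 14.6% of the 48 in TTP-KO, against 18.1% of all genes, and 20.8% in WT, against 16.7% of all genes, so both were near the background. With library size alone the split at 2 h was 4 higher and 0 lower in TTP-KO and 8 higher and 0 lower in WT. At 4 h it was 14 higher and 1 lower in TTP-KO and 10 higher and 1 lower in WT. Among all tested genes, this scaling gave 1002 higher and 447 lower at 2 h in TTP-KO, and 1033 and 414 in WT. Its 4 h counts over all genes were 2156 and 818 in TTP-KO and 1831 and 748 in WT. Higher calls thus outnumbered lower ones among all genes as well. At 4 h, 4 genes passed in both genotypes, which share no library in this comparison: Cnot3, Ddx6, Exosc1 and Pabpc1, or 57.1% of the 7 in TTP-KO and 40% of the 10 in WT. That is 8.33% of the 48, against 11.2% of all genes that passed in both genotypes in the same direction, which made up 62.2% of all genes called in TTP-KO and 67.1% of those called in WT. For Exosc1 the TTP-KO call rests on libraries B and C of 4 h, without which its log2 change was -0.03.

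**Figure D2:**
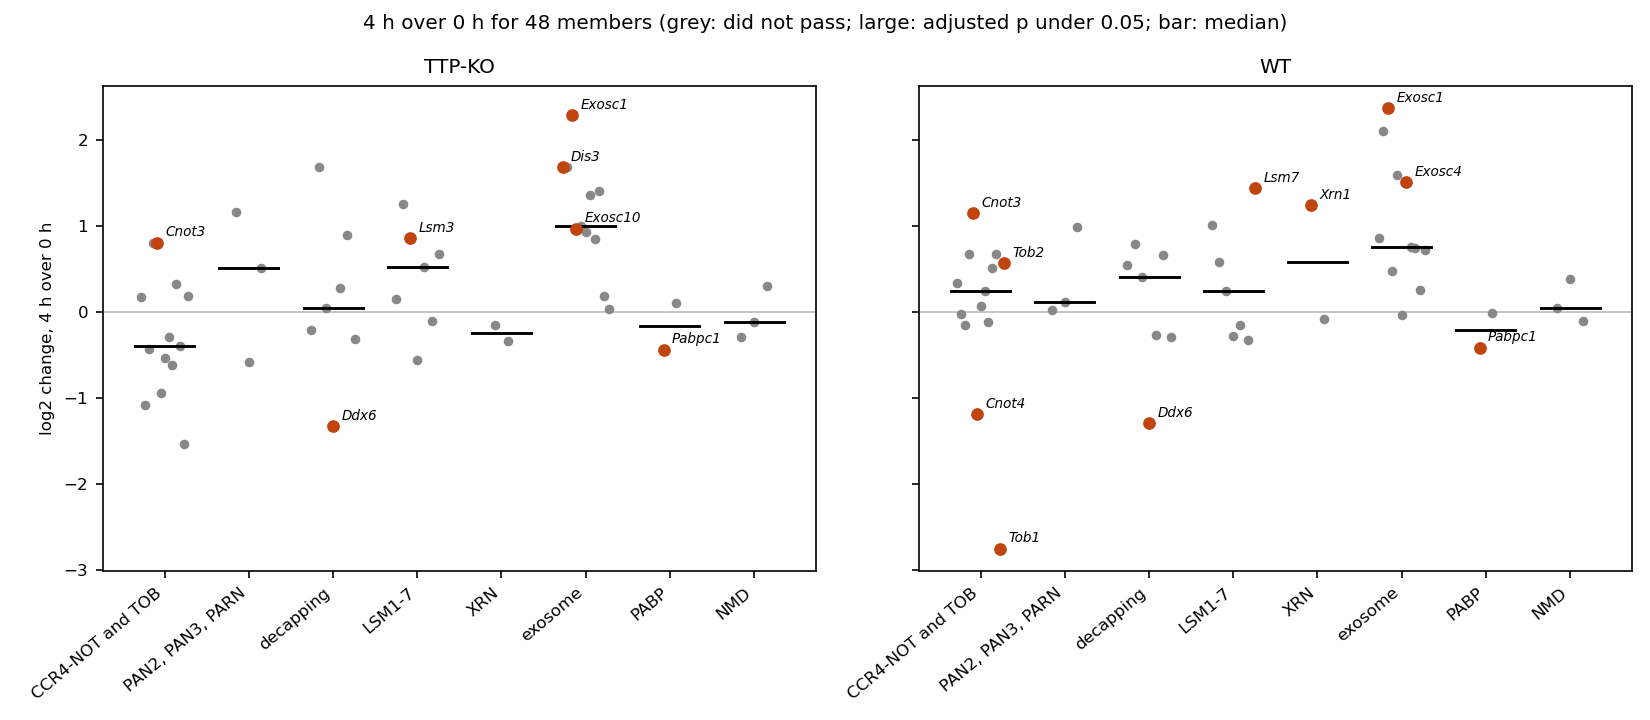
Log2 change of 4 h over 0 h (vertical axis) for each of the 48 genes in TTP-KO (left) and WT (right), by functional group (horizontal axis); a point is a gene, a bar the group's median, and a large, named point a gene with adjusted p under 0.05. Ddx6 falls to about the same extent in both panels (-1.33 and -1.29), and the exosome group has the highest median of the 8 groups (1.00 in TTP-KO and 0.76 in WT).

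Ddx6 gave the smallest adjusted p of the 48. In TTP-KO its libraries A, B and C stood at 288, 297 and 308 CPM at 0 h, 313, 338 and 346 at 1 h, 273, 265 and 196 at 2 h, and 153, 112 and 89.9 at 4 h. In WT they stood at 392, 345 and 316 CPM at 0 h, 316, 330 and 297 at 1 h, 249, 199 and 197 at 2 h, and 163, 111 and 156 at 4 h. Every 4 h library lay below every library of the same genotype at 0, 1 or 2 h. The log2 change at 4 h was -1.33 ± 0.16 in TTP-KO (edgeR adjusted p = 4.92e-09) and -1.29 ± 0.16 in WT (edgeR adjusted p = 1.03e-08), and relative to the median of all genes -1.41 and -1.35. At 2 h it had fallen by 0.71 ± 0.16 on the log2 scale in WT (edgeR adjusted p = 0.00122), and in TTP-KO the value was -0.28 ± 0.16 (adjusted p = 0.301). The difference between these 2 h changes, 0.43 ± 0.22, did not pass (adjusted p = 0.799). With library size alone the WT change at 2 h was -0.45 (adjusted p = 0.0535).

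No other gene of the decapping group passed. Dcp2 had log2 changes at 4 h of 0.05 ± 0.30 in TTP-KO and 0.41 ± 0.30 in WT, and Edc4, which encodes the scaffold that joins DCP1 to DCP2, of 0.89 ± 0.43 (edgeR adjusted p = 0.153) and 0.66 ± 0.43 (adjusted p = 0.321). Edc4 libraries stood at 23.5, 17.8 and 14.4 CPM at 4 h and at 12.9, 5.41 and 11.8 CPM at 0 h in TTP-KO, which did not overlap. Over the 7 genes the 4 h changes ran from -1.33 to 1.68 in TTP-KO and from -1.29 to 0.79 in WT. Patl1, which encodes the scaffold between DDX6 and the LSM ring, had -0.31 ± 0.25 in TTP-KO and -0.29 ± 0.25 in WT.

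**Figure D3:**
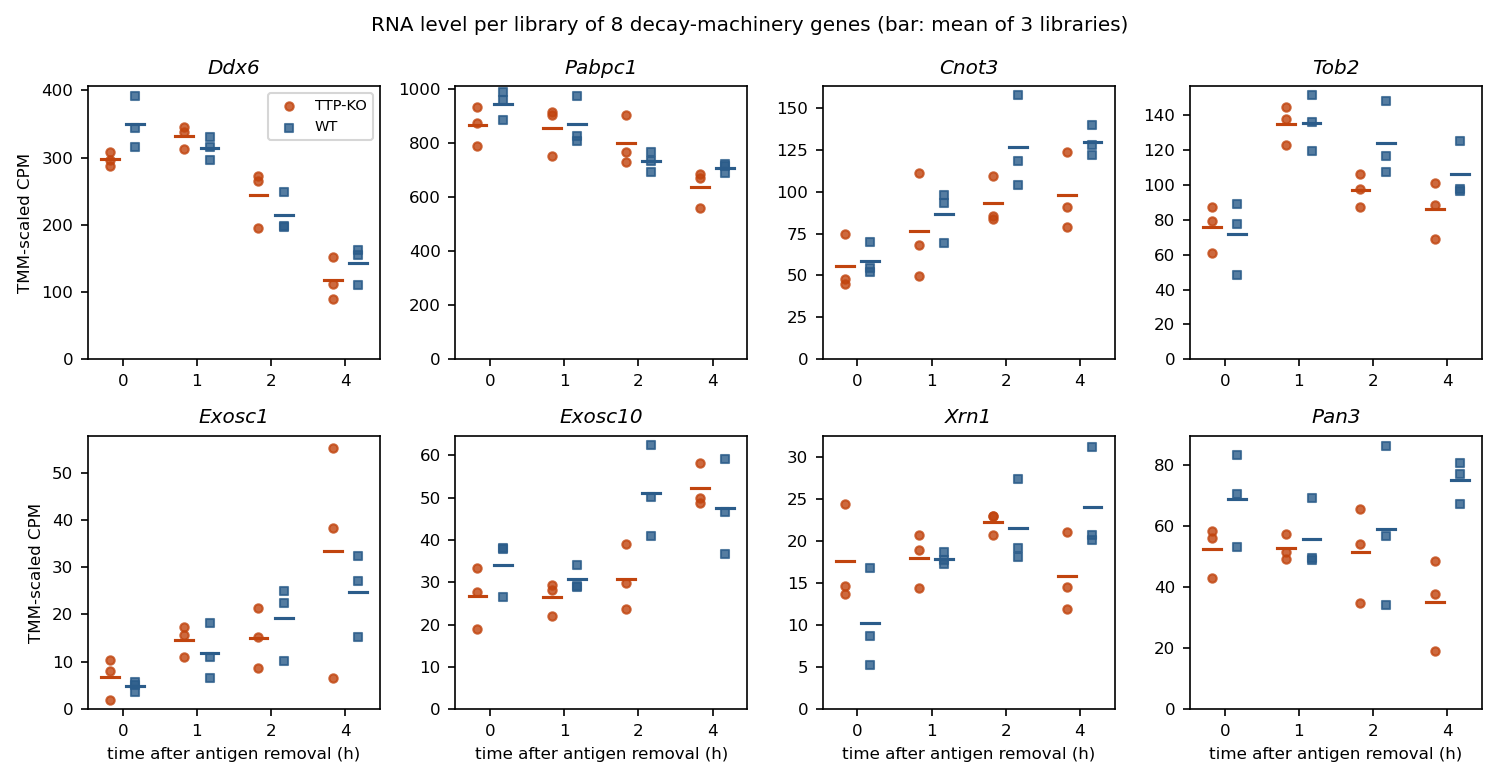
RNA level in TMM-scaled CPM (vertical axis) of 8 genes by hours after antigen removal (horizontal axis, evenly spaced categories), with TTP-KO libraries as circles left of WT libraries as squares and a bar at the mean of 3 libraries. Ddx6 and Pabpc1 are lower at 4 h than at 0 h, Cnot3 and Exosc1 are higher, Tob2 is highest at 1 h in both genotypes, and Pan3 is lower in TTP-KO than in WT at 4 h.

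In the CCR4-NOT group the changes ran in both directions. Cnot3 encodes a subunit of the NOT module that serves as a platform for recruitment. In TTP-KO its libraries A, B and C stood at 48.04, 74.6 and 45.2 CPM at 0 h, 49.9, 68.1 and 111 at 1 h, 85.6, 110 and 83.8 at 2 h, and 124, 90.6 and 79.2 at 4 h. In WT they stood at 69.7, 52.0 and 54.4 CPM at 0 h, 97.8, 69.4 and 93.1 at 1 h, 118, 158 and 104 at 2 h, and 122, 128 and 140 at 4 h. The 4 h libraries lay above the 0 h libraries in both genotypes, by a wider gap in WT. Cnot3 rose at 2 h by 0.73 ± 0.23 in TTP-KO (edgeR adjusted p = 0.03) and 1.11 ± 0.23 in WT (0.00051), and at 4 h by 0.81 ± 0.23 in TTP-KO (0.00851) and 1.15 ± 0.23 in WT (0.000175). Leaving out 1 library ended the TTP-KO calls, at 2 h without A or C of 0 h or B of 2 h (edgeR adjusted p = 0.131, 0.156 and 0.149), and at 4 h without C of 0 h or A of 4 h (0.0603 and 0.0624). The difference between the genotypes' changes was -0.34 ± 0.32 at 4 h, which did not pass (adjusted p = 0.908).

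Tob2 rose early. In TTP-KO its libraries stood at 61.0, 87.2 and 79.4 CPM at 0 h, 123, 138 and 145 at 1 h, 106, 87.5 and 97.9 at 2 h, and 88.6, 101 and 69.1 at 4 h. In WT they stood at 48.4, 77.5 and 89.2 CPM at 0 h, 119, 136 and 152 at 1 h, 117, 148 and 108 at 2 h, and 97.7, 125 and 96.4 at 4 h. The 1 h libraries of both genotypes lay above all their 0 h libraries. The 1 h change was 0.83 ± 0.20 in TTP-KO (edgeR adjusted p = 0.0073) and 0.92 ± 0.20 in WT (0.00264). It passed in WT also at 2 h (0.79 ± 0.20, adjusted p = 0.00407) and 4 h (0.57 ± 0.20, 0.0371), while in TTP-KO the values were 0.36 ± 0.20 (0.291) and 0.18 ± 0.20 (0.581). The genotypes' changes differed by -0.43 ± 0.28 at 2 h and -0.38 ± 0.28 at 4 h, and neither difference passed. Without library A of 0 h, the lowest of its group, the calls were lost in TTP-KO at 1 h (edgeR adjusted p = 0.0931) and in WT at 1 h (0.0694), 2 h (0.0845) and 4 h (0.314), and at 4 h also without B of 0 h (0.0508) or B of 4 h (0.197), or with only the groups compared (0.109).

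Its paralog Tob1 went the other way. At 4 h its libraries stood at 3.01, 0.593 and 1.01 CPM in WT, against 18.2, 4.27 and 8.88 CPM at 0 h, without overlap. It fell in WT by 2.75 ± 0.90 on the log2 scale (edgeR adjusted p = 0.0277), and the TTP-KO value was -1.54 ± 0.86 (adjusted p = 0.221), with 9.99, 1.94 and 3.40 CPM at 4 h and 12.7, 16.4 and 15.6 CPM at 0 h. The WT call was lost without library A of 0 h (0.186), B of 4 h (0.127) or C of 4 h (0.106), with the WT groups at 0 and 4 h fitted alone (edgeR adjusted p = 0.0646), or with library size alone (0.0522). Cnot4, which encodes a ubiquitin ligase associated with the complex, stood at 16.4, 16.9 and 11.8 CPM at 4 h in WT, against 34.2, 25.39 and 43.0 CPM at 0 h. It fell by 1.19 ± 0.37 in WT (edgeR adjusted p = 0.0186), a call lost without C of 0 h (0.125) or C of 4 h (0.102), and with library size alone (0.0982). In TTP-KO Cnot4 stood at 15.6, 21.2 and 20.9 CPM at 4 h, against 37.6, 38.1 and 34.7 CPM at 0 h, with no overlap and a value of -0.94 ± 0.37 (adjusted p = 0.069). The other 9 genes of the group, with the 4 deadenylase subunits Cnot6, Cnot6l, Cnot7 and Cnot8 among them, passed at no time. For Cnot6 the 4 h change was -0.53 ± 0.22 in TTP-KO (adjusted p = 0.0822) and 0.07 ± 0.22 in WT, and for Cnot6l -0.30 ± 0.23 and 0.24 ± 0.23. For Cnot7 it was -0.62 ± 0.30 in TTP-KO and -0.12 ± 0.30 in WT, and for Cnot8 0.32 ± 0.34 and 0.50 ± 0.34.

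The LSM ring binds the 3′ ends of deadenylated RNAs and promotes decapping, and most of its subunits also belong to a nuclear ring of the spliceosome. Of its 7 genes, 1 rose in each genotype at 4 h, and changes ran from -0.56 to 1.26 in TTP-KO and from -0.325 to 1.44 in WT. Lsm3 stood at 101, 70.3 and 71.4 CPM at 4 h in TTP-KO, against 41.9, 44.0 and 47.5 CPM at 0 h, which did not overlap. It rose by 0.86 ± 0.25 (edgeR adjusted p = 0.0111), a call lost without library A of 4 h (0.0742), and in WT its value was 0.24 ± 0.25. Lsm7 stood at 23.5, 49.4 and 29.2 CPM at 4 h in WT, against 8.32, 15.2 and 14.2 CPM at 0 h. It rose there by 1.44 ± 0.37 (edgeR adjusted p = 0.00411), a call lost without library B of 4 h (0.0798), and in TTP-KO its value was 0.68 ± 0.37 (adjusted p = 0.206). Lsm6 fell in WT at 2 h, to 43.2, 64.4 and 61.6 CPM, against 78.7, 132 and 110 CPM at 0 h (-0.92 ± 0.24, edgeR adjusted p = 0.00668). That call was lost without B of 0 h (0.0749) or A of 2 h (0.0742), and with library size alone (0.058). At 4 h Lsm6 in WT stood at 58.0, 106 and 92.5 CPM, which overlapped its 0 h libraries.

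Of the exonucleases that act from the 5′ end, Xrn1 is the cytoplasmic enzyme and Xrn2 the nuclear one. In WT Xrn1 stood at 31.2, 20.7 and 20.1 CPM at 4 h, against 8.69, 16.7 and 5.18 CPM at 0 h, with no overlap. It rose by 1.24 ± 0.43 (edgeR adjusted p = 0.0387). The call was lost without A or C of 0 h (0.141 and 0.244), without A or B of 4 h (0.181 and 0.0526), with only these groups in the fit (0.0893), and with no filter on low counts (0.0579). In TTP-KO Xrn1 stood at 11.9, 14.5 and 21.0 CPM at 4 h and at 14.6, 13.7 and 24.3 CPM at 0 h, overlapping fully (-0.15 ± 0.42). The difference between genotypes, -1.39 ± 0.60, had the lowest adjusted p among the 48 genes for the change to 4 h, but did not pass (edgeR adjusted p = 0.472). Xrn2 fell in TTP-KO at 2 h, to 58.9, 55.6 and 53.5 CPM, against 86.1, 80.6 and 89.5 CPM at 0 h (-0.61 ± 0.20, edgeR adjusted p = 0.0435). That call lay at the threshold: it was lost without any 1 of the 6 libraries compared (edgeR adjusted p between 0.0743 and 0.144), and without any 1 of 12 libraries of other groups (0.0511 to 0.0615). It was lost also with library size alone (-0.40, edgeR adjusted p = 0.224) and with no filter on low counts (0.0608). In WT its value at 2 h was -0.16 ± 0.20.

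The exosome is a ring of subunits that carries ribonucleases and degrades RNA from the 3′ end. Its RNAs were low, with means of 4.98 to 37.5 CPM, and at 4 h they leaned upward in both genotypes. These 11 genes do not include Exosc6. That gene was tested with the further exosome genes below and passed at 4 h in neither genotype. In TTP-KO 11 of 11 had a positive log2 change at 4 h, with a median of 1.00, and 3 passed (27.3%, where 7.45% of all genes were called higher). In WT 10 of 11 were positive, with a median of 0.76, and 2 passed (18.2%, where 6.76% of all genes were called higher). Relative to the median of all genes these medians were 0.92 and 0.70. Of all tested genes 6870 were positive and 5894 negative in TTP-KO, and 6780 and 5835 in WT. The 11 genes were measured in the same libraries and are not independent, and leaving out 1 library left 9 to 11 positive in TTP-KO and 10 to 11 in WT. Without libraries B and C of TTP-KO at 4 h, the median in TTP-KO was 0.62, with 10 of 11 positive and that of Exosc1 negative. The calls of Exosc10 and Dis3 in TTP-KO and of Exosc4 in WT were each lost without certain single libraries, as given below.

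Exosc1 encodes a cap subunit that contacts RNA on its way into the ring. In TTP-KO its libraries A, B and C stood at 10.4, 1.94 and 7.98 CPM at 0 h, 15.6, 10.9 and 17.4 at 1 h, 15.2, 21.4 and 8.77 at 2 h, and 6.66, 55.1 and 38.2 at 4 h. In WT they stood at 5.09, 3.59 and 5.70 CPM at 0 h, 6.49, 18.2 and 10.9 at 1 h, 24.9, 10.3 and 22.4 at 2 h, and 27.0, 32.4 and 15.2 at 4 h. The WT libraries at 2 and 4 h lay above all WT libraries at 0 h, while library A of TTP-KO at 4 h stayed within its 0 h range. Exosc1 rose in WT by 2.00 ± 0.58 at 2 h (edgeR adjusted p = 0.0166) and 2.37 ± 0.59 at 4 h (0.00241). The TTP-KO change at 4 h was 2.29 ± 0.58 (edgeR adjusted p = 0.00289) but rested on the 2 smallest libraries, and it was -0.03 (adjusted p = 1) without them. The WT call at 2 h was lost without B of 0 h (0.0805) or A of 2 h (0.0653).

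Exosc10 encodes the nuclear catalytic subunit. It stood at 49.9, 58.2 and 48.7 CPM at 4 h in TTP-KO, against 33.5, 27.7 and 19.0 CPM at 0 h, with no overlap. It rose by 0.97 ± 0.28 (edgeR adjusted p = 0.0114), a call lost without C of 0 h (0.11), without B of 4 h (0.0508) or without both B and C of 4 h (0.17). In WT its value was 0.48 ± 0.28 (adjusted p = 0.27), at 36.8, 59.3 and 46.5 CPM at 4 h and 37.9, 38.2 and 26.4 CPM at 0 h. Dis3, which encodes the main catalytic subunit of the nuclear exosome, stood at 13.2, 23.9 and 35.8 CPM at 4 h in TTP-KO, against 3.45, 8.53 and 10.7 CPM at 0 h, without overlap. It rose by 1.68 ± 0.58 (edgeR adjusted p = 0.0335), and the call was lost without A or B of 0 h (0.176 and 0.0657), B or C of 4 h (0.0553 and 0.18), or both of the last (0.692). Its WT value was 0.86 ± 0.57. Its cytoplasmic paralog Dis3l had 1.68 ± 1.18 in TTP-KO and 2.10 ± 1.18 in WT, neither of which passed. Exosc4, a ring subunit gene, rose in WT by 1.51 ± 0.55 (edgeR adjusted p = 0.0489), to 22.9, 22.5 and 34.9 CPM at 4 h against 7.20, 10.3 and 10.7 CPM at 0 h. Its libraries did not overlap, but the call was lost without any 1 of the 6 (0.0615 to 0.181) without any 1 of 9 libraries of other groups (0.0501 to 0.0535), and with no filter (0.0525). In TTP-KO its value was 1.36 ± 0.55 (adjusted p = 0.0762).

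**Figure D4:**
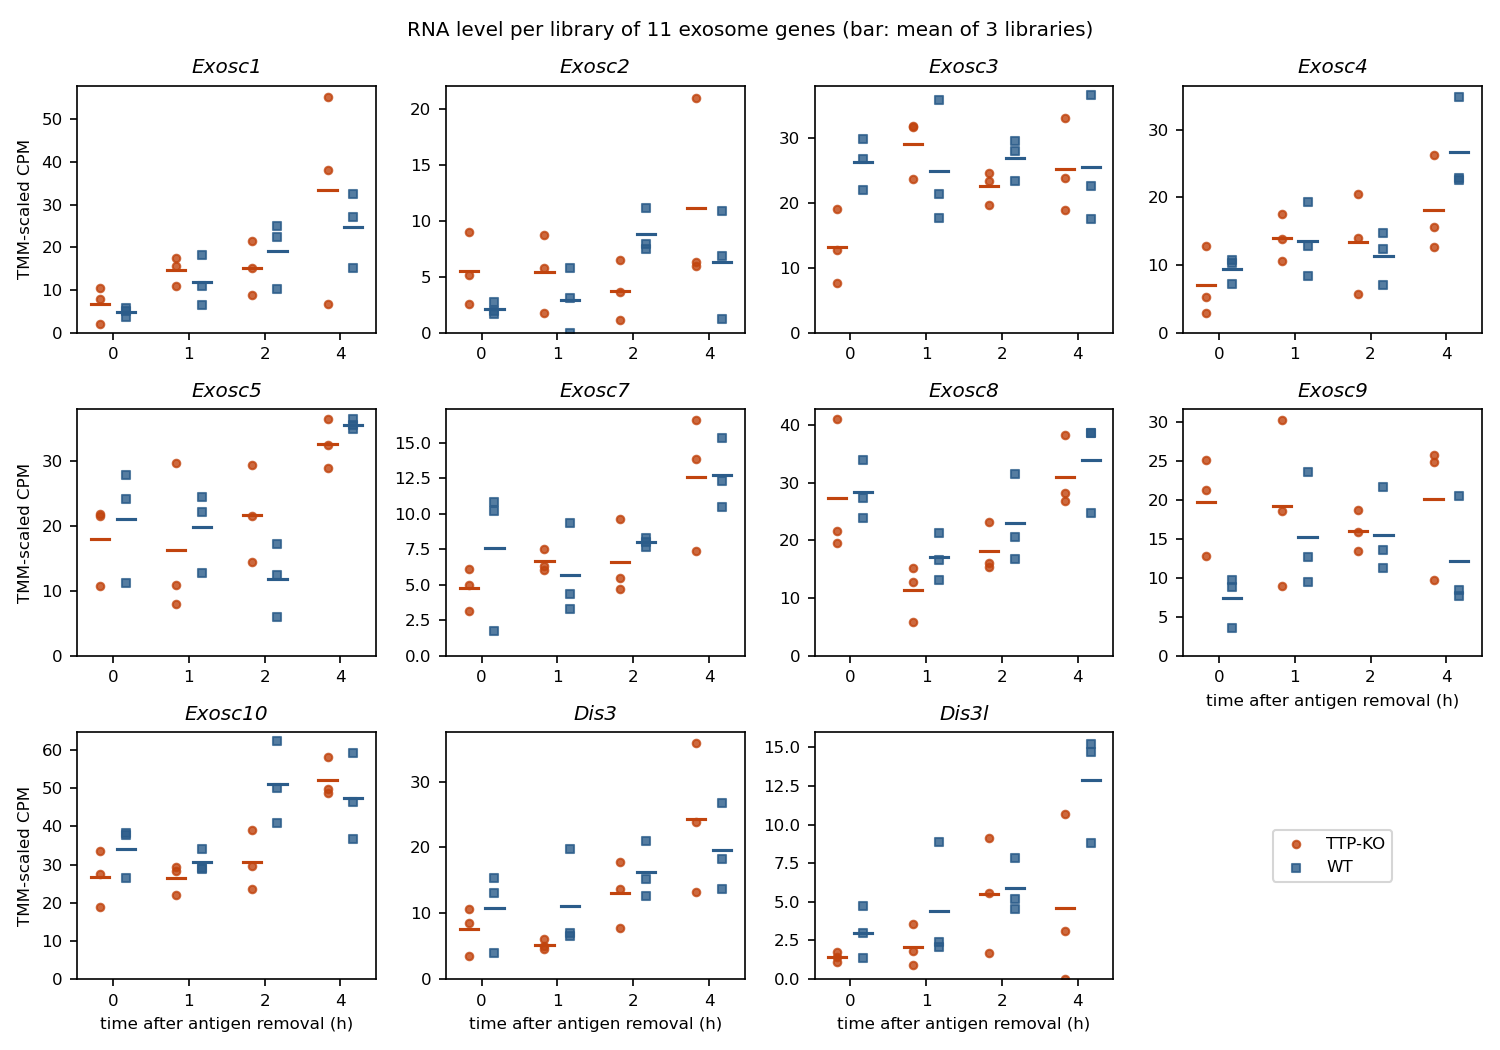
RNA level in TMM-scaled CPM (vertical axis, its own scale in each panel) of the 11 exosome genes by hours after antigen removal (horizontal axis, evenly spaced categories), with TTP-KO libraries as circles left of WT libraries as squares and a bar at the mean of 3 libraries. Means at 4 h lie above means at 0 h for most genes in both genotypes, and the libraries of TTP-KO at 4 h spread widely for Exosc1, from 6.66 to 55.1 CPM.

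Poly(A)-binding protein coats the tail and is displaced as it is shortened. Pabpc1 libraries A, B and C in TTP-KO stood at 790, 874 and 934 CPM at 0 h, 904, 915 and 751 at 1 h, 903, 765 and 730 at 2 h, and 671, 560 and 684 at 4 h. In WT they stood at 958, 989 and 887 CPM at 0 h, 808, 826 and 975 at 1 h, 735, 767 and 693 at 2 h, and 714, 689 and 722 at 4 h. The 4 h libraries lay below the 0 h libraries in both genotypes. Pabpc1 fell at 4 h by 0.44 ± 0.11 on the log2 scale in TTP-KO (edgeR adjusted p = 0.00278) and by 0.41 ± 0.11 in WT (0.00544), and at 2 h by 0.37 ± 0.11 in WT (0.0226). These falls are relative to the other genes: with library size alone the 2 h value in WT was -0.12 and the 4 h values were -0.07 in TTP-KO and -0.09 in WT, and did not pass. Relative to the median of all genes the 4 h values were -0.52 and -0.47. The TTP-KO call was lost without both B and C of 4 h (-0.37, edgeR adjusted p = 0.131), and the WT call at 2 h without A or B of 0 h (0.0714 and 0.109) or A or C of 2 h (0.0787 and 0.108). Pabpc4 did not pass at any time, with 0.10 ± 0.28 in TTP-KO and -0.01 ± 0.28 in WT at 4 h. Of the nonsense-mediated decay genes none passed at any time. Upf1 had -0.12 ± 0.26 in TTP-KO and 0.38 ± 0.26 in WT at 4 h, Upf2, which encodes the partner that activates its helicase, 0.31 ± 0.25 and -0.10 ± 0.25, and Smg1, which encodes the kinase that phosphorylates UPF1, -0.29 ± 0.25 and 0.05 ± 0.25.

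Whether the course after antigen removal depended on TTP was tested directly, as the difference between the genotypes' changes from 0 h. None of the 48 genes passed at 1 h, where 0.0387% of all genes had a more positive and 0.0232% a more negative change in TTP-KO, at 2 h (0.0232% and 0.0541%) or at 4 h (0.085% and 0.108%). At an unadjusted p under 0.05, edgeR counted 3, 0 and 1 of them, and the share of all genes under that threshold is not given here. DESeq2 called 0, 0 and 0 of them at its adjusted threshold. Of all genes, DESeq2 called 43 more positive and 47 more negative at 1 h, 47 and 43 at 2 h, and 104 and 80 at 4 h. Genes that passed in one genotype and not in the other, such as Lsm3, Lsm7, Tob1, Cnot4, Exosc10 and Dis3, are therefore not shown to differ between genotypes.

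Regulators and cofactors of the same pathways were also followed over time. These lists were chosen with the results known, and their counts are descriptions. At 4 h 7.45% of all genes were called higher and 10.6% lower in TTP-KO, 18.1% in all, and 6.76% higher and 9.97% lower in WT, 16.7% in all. Of 21 further deadenylation genes tested, 0 rose and 5 fell at 4 h in TTP-KO (23.8%), and 1 rose and 5 fell in WT (28.6%). Btg2, an antiproliferative gene whose product, like TOB, recruits the CAF1 deadenylases, fell to 49.5 ± 5.5 CPM at 4 h in TTP-KO, against 356 ± 14 CPM at 0 h (SD, n = 3 each; log2 change -2.84 ± 0.18, edgeR adjusted p = 1.04e-17). In WT it fell to 61.7 ± 11.9 CPM, against 366 ± 42 CPM (-2.57 ± 0.18, edgeR adjusted p = 2.62e-16). Its relative Btg1 fell at 4 h in TTP-KO (-0.73) and WT (-0.35). Noct, a relative of the CCR4 nucleases known as nocturnin, fell by 1.84 ± 0.35 in TTP-KO and 1.76 ± 0.35 in WT at 4 h, and the poly(A)-binding protein inhibitor gene Paip2 by 0.81 ± 0.20 and 1.19 ± 0.21. Nanos1, a gene of the NANOS family of RNA-binding proteins, fell too (-1.54 in TTP-KO and -2.37 in WT), and Larp1, a regulator of ribosomal protein RNAs, rose in WT (0.78). Of 16 further decapping genes, 2 rose and 1 fell in TTP-KO at 4 h (18.8%, against 18.1% of all genes), and 0 rose and 1 fell in WT (6.25%, against 16.7%). Pnrc1, a decapping coactivator gene, was the one that fell in both, to 104 ± 11 CPM against 213 ± 20 CPM in TTP-KO and to 110 ± 5 CPM against 196 ± 10 CPM in WT, and Gigyf2 (1.07) and Lsm12 (0.80) rose in TTP-KO.

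Of 22 further exosome genes, 2 rose and 2 fell at 4 h in TTP-KO (18.2%, against 18.1% of all genes), and 4 rose and 2 fell in WT (27.3%, against 16.7%). Mtrex, the nuclear exosome's helicase gene, rose to 77.4 ± 4.8 CPM at 4 h in TTP-KO, against 44.4 ± 4.4 CPM at 0 h (0.80 ± 0.21, edgeR adjusted p = 0.00433), and to 85.8 ± 7.3 CPM in WT, against 37.7 ± 10.2 CPM (1.19 ± 0.21, edgeR adjusted p = 2.97e-05). Mphosph6, an exosome cofactor gene, rose in WT (1.26), as did Zcchc8 (1.74), a subunit gene of the nuclear exosome targeting complex, and Pelo, a ribosome rescue gene, rose in both genotypes (1.4 in TTP-KO and 1.18 in WT). Tut7, a terminal uridylyltransferase gene, fell in both (-0.999 and -0.972), as did the noncanonical poly(A) polymerase gene Tent4a (-1.96 and -1.48). Of 18 further nonsense-mediated decay genes, 1 rose and 3 fell in TTP-KO (22.2%), and 2 rose and 1 fell in WT (16.7%, the share of all genes). Rbm8a, an exon junction complex gene, rose by 1.15 ± 0.14 in TTP-KO (edgeR adjusted p = 4.68e-09) and 0.95 ± 0.14 in WT (4.07e-07), and Etf1, which encodes the translation release factor, fell by 1.33 ± 0.14 and 1.15 ± 0.14. Its partner Gspt1 rose in WT (1.00), and Dhx34 (-1.38), a helicase gene, fell in TTP-KO. Of 19 microRNA effector and related genes, 1 rose and 5 fell in TTP-KO (31.6%, against 18.1% of all genes), and 1 rose and 2 fell in WT (15.8%, against 16.7%). Ago2 fell by 1.25 ± 0.16 in TTP-KO and 0.685 ± 0.158 in WT, Zc3h12a, which encodes the endonuclease Regnase-1, by 1.63 ± 0.41 and 1.94 ± 0.42, and Xpo5, the exportin for microRNA precursors, rose by 1.85 ± 0.46 and 1.52 ± 0.46. Rc3h1 (-1.48), which encodes Roquin-1, Rc3h2 (-0.83) and Ythdf3 (-0.88) fell in TTP-KO.

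Between genotypes, 2 genes of these lists passed, and both were higher in TTP-KO, where 0.943% of all genes were called higher at 4 h and 1.88% for the average, so the count was near the background. Pabpn1, which encodes the nuclear poly(A)-binding protein, stood at 283 ± 54 CPM in TTP-KO at 4 h, against 195 ± 12 CPM in WT (0.54 ± 0.14, edgeR adjusted p = 0.0313), and averaged over the times its change was 0.25 ± 0.07 (edgeR adjusted p = 0.0346). Magohb, an exon junction complex gene, was higher by 0.73 ± 0.15 averaged over the times (edgeR adjusted p = 0.00141). Zfp36 still gave reads in TTP-KO. It stood at 185 ± 26 CPM in TTP-KO and 237 ± 28 CPM in WT at 0 h (SD, n = 3 each), a log2 change of -0.36 ± 0.24 that did not pass (edgeR adjusted p = 0.796). It was lower in TTP-KO at 1 h, at 46.3 ± 11.4 CPM against 126 ± 21 CPM in WT (-1.45 ± 0.24, edgeR adjusted p = 0.000116), and at 4 h, at 37.5 ± 21.4 CPM against 68.4 ± 9.9 CPM in WT (-0.87 ± 0.24, edgeR adjusted p = 0.0422). The 2 h value was -0.92 ± 0.24 (edgeR adjusted p = 0.0652). Where the gene was disrupted is not given in the sources used here, so tags from its 3′ end cannot check the genotype.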

How the data were processed

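Total reads (labelled and unlabelled RNA together) of 24 SLAM-seq libraries were analysed from the deposited expected counts, estimated reads per gene and library that the authors had not normalized, of which 12.8% were not whole to within 0.001. Libraries were QuantSeq 3′ tags, per the labels' protocols. Per the submitters' processing notes, STAR 2.7.10a, cutadapt 3.5 and SAMtools were used with build GRCm39. The annotation is not given in the sources used here. Columns carry a letter that nothing ties to the labels' replicate numbers, so a column was assigned to a group but to no numbered sample. The other 144 per-sample columns, which hold estimates of the labelled share and its intervals per the file headers, were not used, and the labelled share of these genes was not analysed here.

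Counts were rounded, scaled by TMM and filtered with filterByExpr in edgeR 4.0.16 (R 4.3.3), and 1 quasi-likelihood fit with 8 group means gave 14 contrasts, each adjusted by Benjamini-Hochberg over 12936 genes and called under 0.05. DESeq2 1.42.0 was an alternative, beside other scalings, filters, fits and left-out libraries. The procedure was tested on simulated counts. No library repeated another (chi-square per degree of freedom 30.2 to 78.7 over 24 pairs). The 3′ UTR of a gene was that of its protein-coding transcript with the longest one. Totals of 8839260 to 25372890 reads set the counting precision. Tags carried no molecular identifiers in the table, so floors cover counting error only.

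The 48 genes, the further lists and the tests were chosen with earlier results of these data known. All members were accounted for, those called in any contrast were named with library values, paralog pairs were named whether or not they passed, and called genes of the further lists were named at 4 h and between genotypes, except 1 that is not reported here.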

Additional observations from a re-analysis of the deposited data

How the results depend on the processing

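Of 28 gene calls, those of Ddx6 at 4 h in both genotypes, Cnot3 at 2 and 4 h in WT and Exosc1 at 4 h in WT kept direction and threshold under all 32 alternatives. The single reversal was Exosc1 at 4 h in TTP-KO, at -0.0328 without libraries B and C of TTP-KO at 4 h. Counts of genes called moved as follows. For TTP-KO against WT at 4 h (1), the count was 0 with only the groups compared and without those 2 libraries, and 0 to 1 leaving out 1 library. For the average over times (0), it was 1 with no filter and 0 to 1 leaving out 1 library. For 1 h in TTP-KO (1), it was 2 with no filter, with CPM of at least 5 in 3 libraries and with only the groups compared, 4 with DESeq2 and 0 to 1 leaving out 1 library. For 2 h in TTP-KO (2), it was 4 with library size only, 1 with no filter and without the 2 libraries, and 0 to 2 leaving out 1 library. For 4 h in TTP-KO (7), it was 15 with library size only, 3 without the 2 libraries, 12 with DESeq2 and 5 to 9 leaving out 1 library. For WT it was 2 at 1 h (1) with no filter and without the 2 libraries, and 1 to 2, 3 to 7 (6) and 6 to 10 (10) at 1, 2 and 4 h leaving out 1 library. The cause was not tested. Other counts stayed within 1.5 times.

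A replicate block by library letter gave 1 call at 2 h in TTP-KO, as Xrn2 was lost (edgeR adjusted p = 0.0502), and moved no other count by over 1.5 times. No label pairs the samples by letter. Correlations of deviations between same-letter TTP-KO and WT libraries lay between -0.0402 and 0.0481 over 12 pairs, 0 of them over 0.1. They were taken over all tested genes, where counting noise can hide shared deviations. They cannot decide whether a letter marks a shared culture or batch. For Dcp1b, Exosc2 and Dis3l, with mean levels of 3.05, 5.76 and 4.98 CPM, SEs exceeded 1 on the log2 scale in comparisons between single groups. The part of read depth in this was not tested.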
